A study of Mus musculus with 6 samples.

Results

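The 10 circadian clock genes Arntl, Clock, Per1, Per2, Per3, Cry1, Cry2, Nr1d1, Nr1d2 and Dbp were chosen by name as core clock and clock output genes. Earlier results of these data were known when they were chosen. All 10 were found by symbol among the 17091 genes of the deposited table, and all 10 were tested. The RNA came from the lateral wall of the cochlea, the strip that holds the stria vascularis and the spiral ligament, of 3 old mice aged 2.5 years and 3 young mice aged 2 months, all of the inbred CBA/CaJ strain. Each library came from 1 mouse, with both cochleas pooled, and no treatment or engineered allele is labelled in either group. The time of day of dissection is not given in the labels, so its part in any difference below was not tested.

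The circadian clock is a loop of transcription factors that runs in most mammalian cells. BMAL1, encoded by Arntl, pairs with CLOCK and switches on the Per, Cry, Nr1d1, Nr1d2 and Dbp genes through E-box sequences. PER and CRY proteins then inhibit that pair, and the REV-ERB proteins encoded by Nr1d1 and Nr1d2 repress Arntl through an element (RRE) that ROR receptors also bind. In mouse tissues Arntl RNA peaks at about the opposite time of day from Nr1d1, Dbp and Per3 RNA, and the mouse cochlea holds a clock of its own that keeps running in culture.

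The promoters of 4 members are shown first because each holds letters of an element through which the loop is known to act on its own genes. The windows are 300 bases of the RefSeq table on GRCm38.p6, which is the C57BL/6J genome and not that of CBA/CaJ, from 250 bases before to 50 after an annotated start. They are given 5′ to 3′ on the gene's own strand. The Arntl window lies at chr7:113207261-113207560 (plus strand), the Nr1d1 window at chr11:98775328-98775627 (minus strand), the Per1 window at chr11:69098699-69098998 (plus strand) and the Per3 window at chr4:151044616-151044915 (minus strand). Capitals mark an RRE core (TAGGTCA) in Arntl, an E-prime box (CACGTT, on the opposite strand) in Nr1d1, an E-box (CACGTG) in Per1 and a pair of D-boxes (TTATGTAA), the element that DBP binds, in Per3.
Arntl: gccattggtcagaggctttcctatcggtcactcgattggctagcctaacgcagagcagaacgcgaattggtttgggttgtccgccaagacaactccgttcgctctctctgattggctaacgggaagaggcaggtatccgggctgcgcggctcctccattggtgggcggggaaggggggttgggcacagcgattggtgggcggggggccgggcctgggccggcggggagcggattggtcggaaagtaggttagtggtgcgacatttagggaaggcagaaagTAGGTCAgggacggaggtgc
Nr1d1: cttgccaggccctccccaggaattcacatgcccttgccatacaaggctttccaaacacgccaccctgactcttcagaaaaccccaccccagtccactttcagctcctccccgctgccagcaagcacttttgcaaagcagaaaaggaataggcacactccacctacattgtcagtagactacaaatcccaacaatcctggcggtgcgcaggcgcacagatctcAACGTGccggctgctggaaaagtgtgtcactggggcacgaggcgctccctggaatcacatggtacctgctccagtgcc
Per1: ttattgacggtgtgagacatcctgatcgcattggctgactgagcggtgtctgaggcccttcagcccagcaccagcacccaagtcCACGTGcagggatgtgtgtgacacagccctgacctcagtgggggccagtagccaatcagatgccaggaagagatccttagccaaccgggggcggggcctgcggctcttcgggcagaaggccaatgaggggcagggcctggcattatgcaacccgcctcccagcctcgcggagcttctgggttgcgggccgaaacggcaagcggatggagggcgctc
Per3: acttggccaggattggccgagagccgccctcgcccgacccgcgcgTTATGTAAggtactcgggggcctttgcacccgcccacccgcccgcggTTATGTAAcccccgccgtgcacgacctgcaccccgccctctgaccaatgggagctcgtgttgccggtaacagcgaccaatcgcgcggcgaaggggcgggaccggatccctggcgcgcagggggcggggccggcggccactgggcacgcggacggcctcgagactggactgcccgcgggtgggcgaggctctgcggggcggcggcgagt

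The first base of the Arntl element is base 31 counted from the annotated start of the window shown. Another Arntl window, of an upstream start, at chr7:113207215-113207514, ends before this element and held none of those searched. Per1 also has another window, of a downstream start, at chr11:69099902-69100201, which held none of them either. Counted from the start, the element of Nr1d1 begins at −28, that of Per1 at −166 and those of Per3 at −205 and −158. Both strands of all 32851 windows in that table were searched. An E-box was found in 7.15% of them, an E-prime box in 4.68%, a D-box (TTATGTAA or TTACGTAA) in 1.06% and an RRE core (TAGGTCA or TGGGTCA) in 6.45%. Of the 9 members with a window, 2 held an E-box (Per1 and Cry1), 3 an E-prime box (Cry1, Cry2 and Nr1d1), 1 a D-box (Per3) and 1 an RRE core (Arntl). A member was counted if any of its windows held the element. These counts of genes are therefore not directly comparable with the shares of windows. A match is a string of letters in this window and does not show that a factor bound there.

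Arntl RNA was lower in old lateral wall, and the other 9 clock genes did not pass the test. Arntl stood at 559, 584 and 344 normalised read counts in old replicates 1, 2 and 3, against 921, 995 and 1026 in young replicates 1, 2 and 3. The groups did not overlap, and old replicate 3 was the lowest library. The mean was 496 ± 132 in old mice and 981 ± 53.9 in young mice (SD, n = 3 each), and the log2 fold change was −1.02 ± 0.20 (SE), with a 95% interval of −1.47 to −0.57. Here and below, a fold change is the old mean minus the young mean of log2(value + 1), tested with limma and adjusted by Benjamini-Hochberg over all 17091 genes at a threshold of 0.05. The adjusted p of Arntl was 0.0222, and 1 of the 10 members was called lower and 0 higher, where 5.25% of all genes were called, 2.71% higher and 2.55% lower in old mice. The median log2 fold change of the 10 was −0.18, against −0.001 over all genes.

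The Arntl difference did not rest on old replicate 3, since it was −0.78 without that library, with a limma adjusted p of 0.0218. The call was lost when any 1 young library was left out, with adjusted p of 0.0597, 0.0895 and 0.105 without young replicates 1, 2 and 3, while the fold change stayed between −1.06 and −0.99. It was also lost with the replicate number as a block (adjusted p = 0.0517) and without the trend and robust options of limma (0.0915). The authors' deposited table gives Arntl a fold change of −1.98 (adjusted p = 0.000111).

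**Figure D1:**
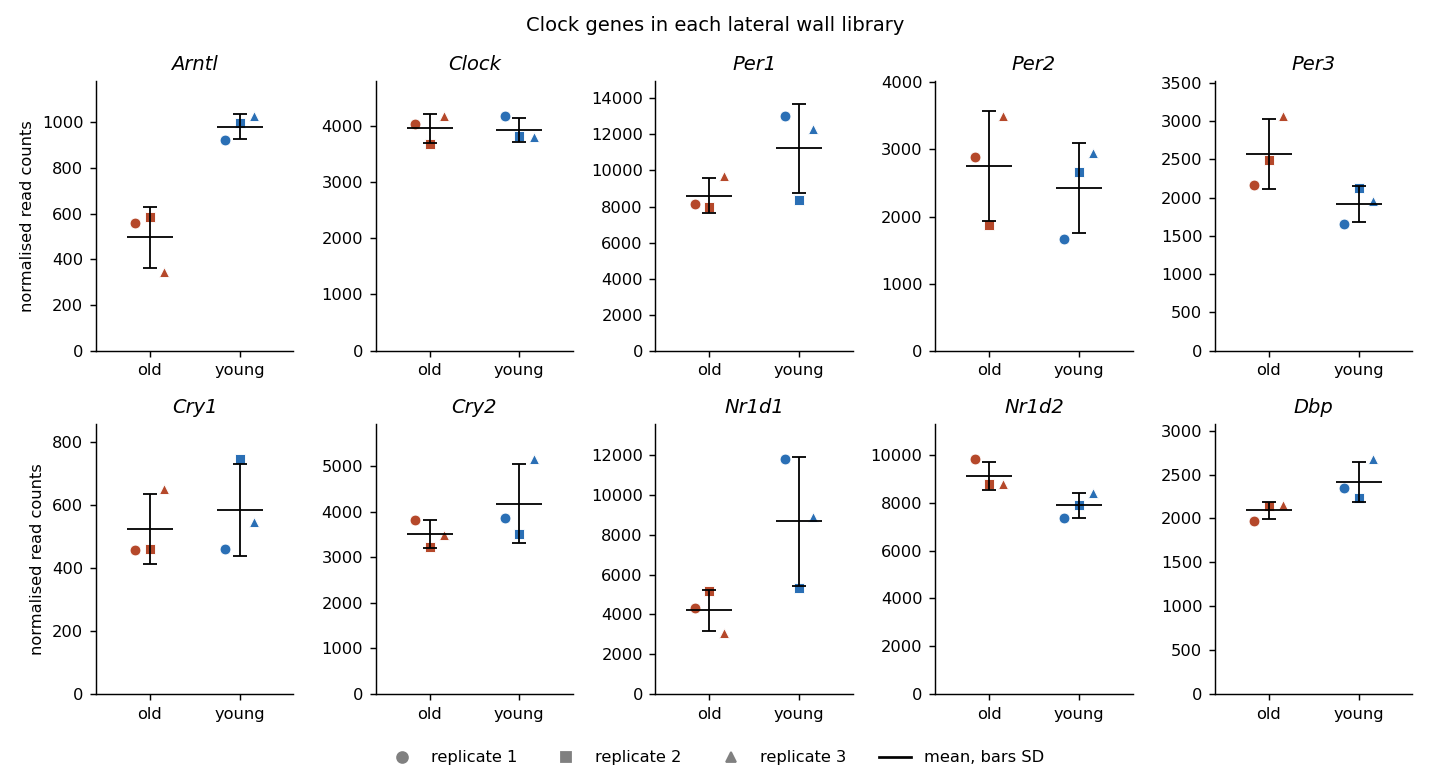
Normalised read counts (vertical axis, from 0) of the 10 clock genes in each of the 3 old (red, left) and 3 young (blue, right) libraries, with the marker shape giving the replicate and black bars the mean and SD. The old libraries of Arntl sit between 344 and 584, all below the young libraries at 921 to 1026, while the groups of Clock overlap.

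Clock, which encodes the partner of BMAL1, did not follow Arntl. It stood at 4026, 3674 and 4170 normalised read counts in the old libraries, against 4168, 3812 and 3797 in the young libraries. The groups overlapped throughout, and the log2 fold change was 0.01 ± 0.09 (SE), with a 95% interval of −0.20 to 0.22 (limma adjusted p = 0.964). Within each library, the ratio of Arntl to Clock counts was 0.139, 0.159 and 0.0825 in old replicates 1, 2 and 3 and 0.221, 0.261 and 0.270 in young replicates 1, 2 and 3. Each old library thus lay below each young one in this ratio, which does not depend on how the libraries were scaled to each other. With 3 against 3 libraries, the smallest p that an exact permutation test of a ratio can give is 0.1, so the ratios here and below are descriptions.

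Npas2, a relative of Clock whose protein can replace it in the pair with BMAL1, lay between these patterns. It had 257, 356 and 154 normalised read counts in old replicates 1, 2 and 3, against 466, 397 and 414 in young replicates 1, 2 and 3. The groups did not overlap, and old replicate 3 was again the lowest. The log2 fold change was −0.81 ± 0.28 (SE), which was not called (limma adjusted p = 0.137). It was −1.09 and called without old replicate 2 (adjusted p = 0.0258), and −0.49 without old replicate 3 (adjusted p = 0.2). Arntl2, a relative of Arntl, was at 27.9 to 39.8 normalised read counts in the old and at 28.3 to 52.1 in the young libraries.

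The REV-ERB genes, which encode the repressors of Arntl, had fold changes of opposite sign. Nr1d1 (REV-ERB alpha) stood at 4322, 5175 and 3084 normalised read counts in old replicates 1, 2 and 3, against 11783, 5321 and 8900 in young replicates 1, 2 and 3. The groups did not overlap, but old replicate 2 and young replicate 2 lay close together. The means were 4194 ± 1051 in old and 8668 ± 3238 in young mice (SD, n = 3 each). Its log2 fold change of −1.01 ± 0.31 (SE) was about as large as that of Arntl, and it was not called (95% interval −1.72 to −0.29, limma adjusted p = 0.116). Without young replicate 2, the log2 fold change of Nr1d1 was −1.32 and the gene passed (limma adjusted p = 0.0391). It also passed in the authors' deposited table, which gives a fold change of −2.07 and an adjusted p of 0.00222, and with DESeq2 on the recovered reads (0.00226). In those tests 10.8% and 10.9% of all genes were called.

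Nr1d2 (REV-ERB beta) stood at 9815, 8778 and 8784 normalised read counts in the old libraries, against 7356, 7922 and 8393 in the young libraries. Every old library was above every young one, by a small margin. Its log2 fold change was 0.21 ± 0.10 (SE), with a 95% interval of −0.01 to 0.43 (limma adjusted p = 0.253). The ratio of Nr1d1 to Nr1d2 counts was 0.44, 0.59 and 0.351 in old replicates 1, 2 and 3 and 1.6, 0.672 and 1.06 in young replicates 1, 2 and 3. The ranges did not overlap, which follows from the values of the genes themselves, and young replicate 2 was the young library nearest to the old ones.

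Reads of Nr1d1 are uncertain in part, because 263 of its 2721 exon bases in GENCODE M21 also lie in exons of Thra, a thyroid hormone receptor gene on the opposite strand, and the sources used here do not say whether strand was kept. Thra had 5999, 6403 and 6252 normalised read counts in the old libraries, against 8462, 7417 and 8000 in the young libraries. Thra was thus lower in all old libraries, by −0.35 ± 0.09 on the log2 scale (SE), which limma did not call (adjusted p = 0.0609) and the authors' deposited table does (adjusted p = 0.00861). The part of shared reads in the Nr1d1 values was not tested.

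Dbp encodes a PAR bZIP transcription factor that carries the clock signal to D-box genes, and it differed little. It stood at 1976, 2146 and 2152 normalised read counts in the old libraries, against 2347, 2233 and 2673 in the young libraries. The groups did not overlap, but the highest old and the lowest young library were close. The log2 fold change was −0.21 ± 0.10 (SE), with a 95% interval of −0.44 to 0.03 (limma adjusted p = 0.294). Of its 1837 exon bases, 539 lie in exons of Sphk2, a sphingosine kinase gene on the opposite strand. Sphk2 itself was called lower in old mice, at −0.51 ± 0.10 on the log2 scale (limma adjusted p = 0.0216), and the part of its reads in the Dbp values was not tested. The related factors Tef and Hlf had log2 fold changes of −0.05 and 0.18 and were not called either.

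**Figure D2:**
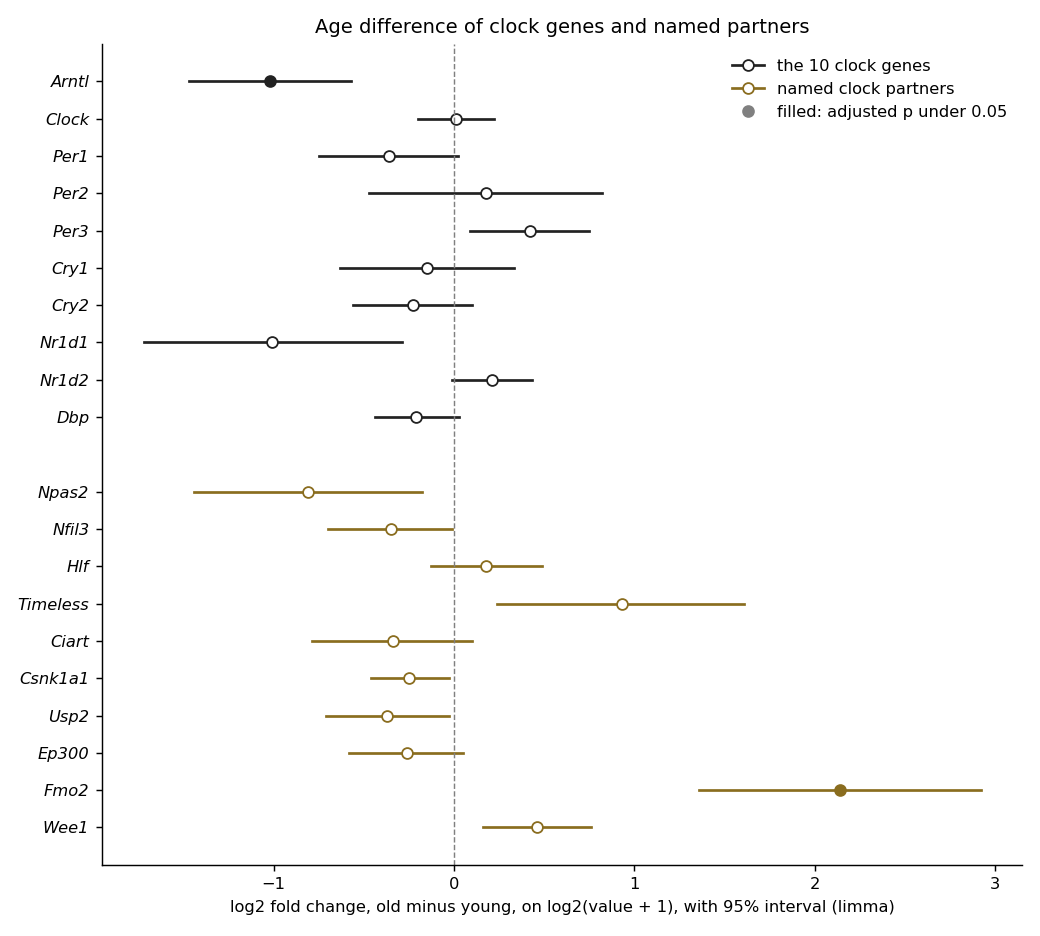
Log2 fold change, old minus young, with its 95% interval (limma, horizontal axis) for the 10 clock genes (black, top) and 10 named partners (brown, bottom), with a filled point for an adjusted p under 0.05. Arntl is the filled point among the clock genes and Fmo2 among the partners, and the interval of Clock, −0.20 to 0.22, lies about 0.

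The Period genes, which encode the inhibitors of the BMAL1 pair, did not share a direction. Per3 stood at 2161, 2496 and 3062 normalised read counts in old replicates 1, 2 and 3, against 1657, 2121 and 1952 in young replicates 1, 2 and 3. The groups did not overlap, with old replicate 1 just above young replicate 2. Its log2 fold change was 0.42 ± 0.15 (SE), with a 95% interval of 0.09 to 0.75, which was not called (limma adjusted p = 0.14). The authors' deposited table gives Per3 a fold change of 1.35 and an adjusted p of 0.08.

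Per1 stood at 8144, 7955 and 9705 normalised read counts in the old libraries, against 13010, 8376 and 12275 in the young libraries. Young replicate 2 lay among the old libraries, so the groups overlapped. The log2 fold change was −0.36 ± 0.17 (SE, 95% interval −0.75 to 0.02, limma adjusted p = 0.257). Per2 stood at 2884, 1872 and 3495 in the old libraries, against 1660, 2668 and 2947 in the young libraries. The groups overlapped fully, and the log2 fold change of 0.18 ± 0.28 (SE) had a 95% interval of −0.47 to 0.82 (limma adjusted p = 0.772), so a moderate difference in either direction could not be detected here. The ratio of Per1 to Per3 counts was 3.77, 3.19 and 3.17 in the old libraries and 7.85, 3.95 and 6.29 in the young libraries, with no overlap.

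The cryptochrome genes, whose products are the main repressors of the BMAL1 pair, were not called. Cry1 stood at 458, 460 and 652 normalised read counts in the old libraries, against 461, 746 and 547 in the young libraries. Cry2 stood at 3823, 3220 and 3494 in the old libraries, against 3872, 3500 and 5148 in the young libraries. Both pairs of groups overlapped, and Cry2 was high in young replicate 3 alone. The log2 fold changes were −0.15 ± 0.21 for Cry1 (95% interval −0.63 to 0.33, limma adjusted p = 0.738) and −0.23 ± 0.15 for Cry2 (−0.56 to 0.10, 0.403).

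Of the 10 members, 5 had groups without overlap, where 26.1% of all genes had none. Arntl, Nr1d1 and Dbp were lower in every old library (12.8% of all genes were), and Per3 and Nr1d2 were higher in every old library (13.2% were). An unadjusted p under 0.05 was found for 3 members, Arntl, Nr1d1 and Per3, where 21.3% of all genes had one. With so few members these shares are descriptions and are not set apart from the background by a test.

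Divided by exon length, the order of mean levels among the members differed between the groups at its top, though not in every library. Nr1d2 was the highest member in old replicates 1 and 3. Old replicate 2 instead had Nr1d1 at 1902 and Nr1d2 at 1883 per kilobase. Per kilobase of exon, Nr1d2 averaged 1957 ± 128 normalised read counts in old mice, Nr1d1 1541 ± 386, Per1 1529 ± 171 and Dbp 1138 ± 54.4 (SD, n = 3 each). In young mice Nr1d1 averaged 3186 ± 1190 per kilobase, Per1 1995 ± 443, Nr1d2 1692 ± 111 and Dbp 1316 ± 124. Cry2 followed at 809 ± 69.5 in old and 961 ± 199 in young mice. Per2, Clock and Per3 lay at 472 ± 141, 399 ± 25.7 and 429 ± 75.9 in old mice and at 416 ± 116, 396 ± 21.2 and 318 ± 39.2 in young mice. Cry1 and Arntl were the lowest, at 173 ± 37.0 and 160 ± 42.8 in old mice, while in young mice Cry1 was at 193 ± 48.3 and Arntl at 317 ± 17.4, level with Per3. Neighbours in this order whose difference is smaller than the larger of their SDs cannot be ranked. Examples in old mice are Nr1d1 and Per1, and also Per2, Per3 and Clock. In young mice they are Per1 and Nr1d2, and also Per2 and Clock.

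The libraries of 1 group also differed among themselves in clock genes. Among the young, replicate 1 had the highest Nr1d1 and Per1 and the lowest Per2, Per3 and Cry1, and replicate 2 had the lowest Nr1d1 and the highest Cry1 and Per3. Among the old, replicate 3 had the lowest Nr1d1, Arntl and Npas2 and the highest Per2, Per3 and Cry1. The SD of log2(value + 1) of Nr1d1 was 0.379 within the old and 0.582 within the young libraries, and it exceeded the SD of 84.8% and 97.6% of the 13308 genes with a mean of at least 50. Per2 had SDs of 0.461 in old and 0.442 in young mice, above 90.0% and 94.9% of those genes. Arntl varied among the old libraries (SD 0.424, above 87.9% of genes) and little among the young (0.08, above 24.1%), and Clock, Nr1d2 and Dbp varied less than the median gene in both groups (0.177 within old and 0.136 within young).

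**Figure D3:**
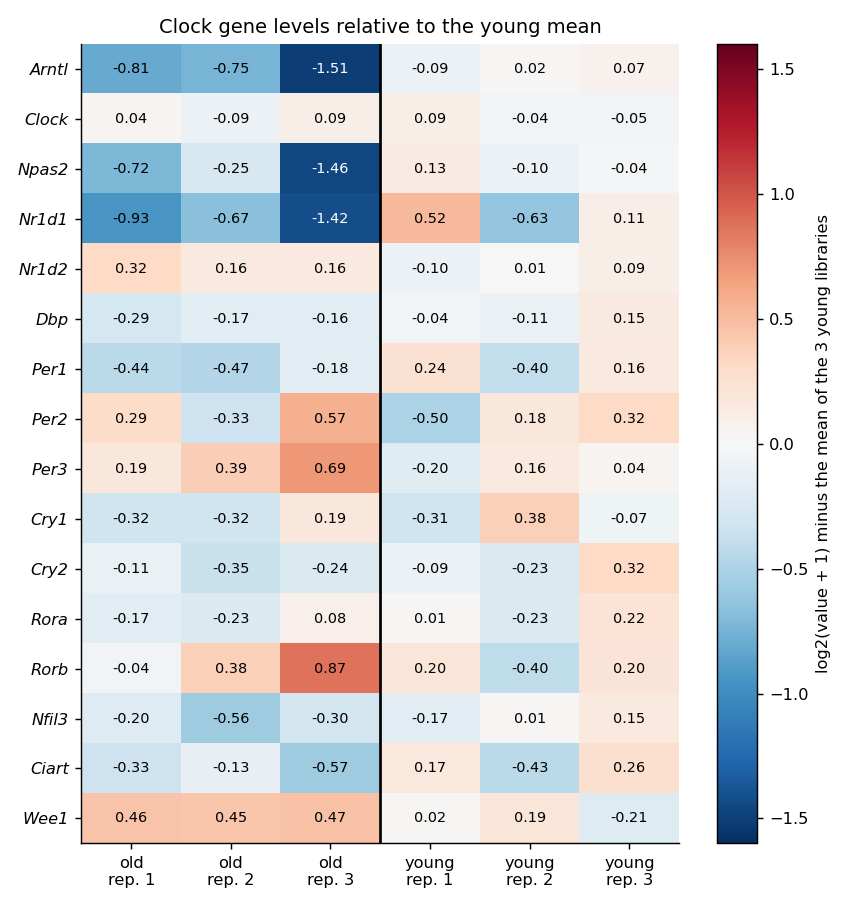
Log2(value + 1) of the clock genes and 6 partners in each library minus the mean of the 3 young libraries, with old libraries left of the line and young ones right, and red for higher and blue for lower. Old replicate 3 has the lowest Arntl (−1.51), Npas2 (−1.46) and Nr1d1 (−1.42), and Wee1 has nearly the same value in the 3 old libraries (0.45 to 0.47).

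A limb score was computed per library as the mean log2 level of Per1, Per2, Per3, Nr1d1, Nr1d2 and Dbp minus that of Arntl, Clock and Npas2. It was 2.27, 2.10 and 2.82 in old replicates 1, 2 and 3 and 1.86, 1.82 and 2.07 in young replicates 1, 2 and 3, a difference of means of 0.48. The ranges did not overlap, by a margin between old replicate 2 and young replicate 3 that is small beside the spread of the old libraries (SD 0.38). Without Clock the difference was 0.79. Among its terms, the subtracted genes Arntl and Npas2 were lower in every old library. Of the added genes, Nr1d1 and Dbp were lower and Per3 and Nr1d2 higher in every old library. The log2 fold changes of the subtracted Arntl, Clock and Npas2 were −1.02, 0.01 and −0.81. Those of the added Per1, Per2, Per3, Nr1d1, Nr1d2 and Dbp were −0.36, 0.18, 0.42, −1.01, 0.21 and −0.21. The higher score of the old libraries thus came through the subtracted Arntl and Npas2, and the added genes were not higher as a set. The ratio of Per3 to Arntl counts was 3.86, 4.27 and 8.90 in the old libraries and 1.80, 2.13 and 1.90 in the young libraries. Of the 11 ratios computed, 5 had groups without overlap. The other 6 overlapped, namely those of Nr1d1 to Arntl, Nr1d1 to Dbp, Npas2 to Arntl, Per1 to Per2, Per2 to Per3 and Cry1 to Cry2. For Per3 over Arntl and Nr1d1 over Nr1d2 an overlap was not possible. The genes of each pair differed in opposite directions in every old library, so these ratios restate the member values. No share over other gene pairs was computed to set beside these counts. Nr1d1 over Arntl, the pair with the largest fold changes among the members, averaged 8.52 ± 0.686 in old and 8.94 ± 3.73 in young mice (SD, n = 3 each).

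**Figure D4:**
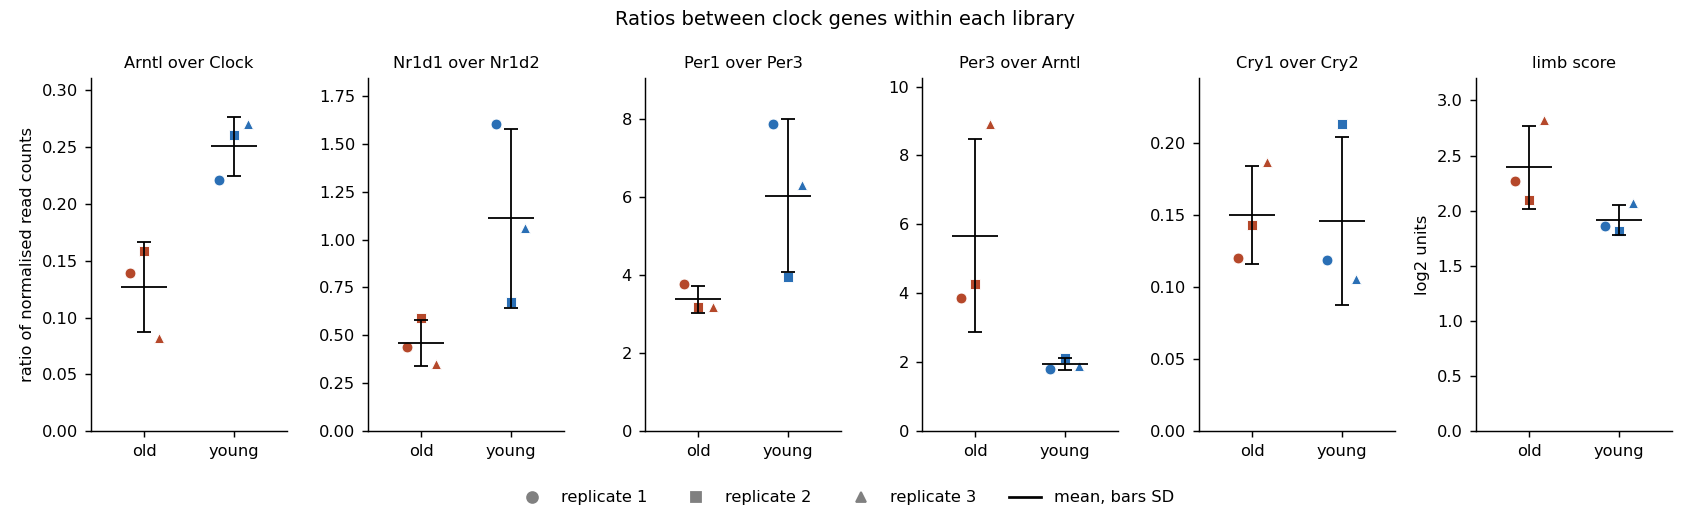
Ratios of normalised read counts of 5 pairs of clock genes within each library, and the limb score in log2 units (vertical axes from 0), for old (red, left) and young (blue, right) libraries, with the mean and SD in black. The groups do not overlap for Arntl over Clock (0.0825 to 0.159 in old, 0.221 to 0.270 in young), Nr1d1 over Nr1d2, Per1 over Per3 and Per3 over Arntl, and they overlap for Cry1 over Cry2.

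Among 47 other genes of the clock pathway, listed by role, 1 was called higher and 0 lower by limma, with a median log2 fold change of −0.10. Over all genes limma called 2.71% higher and 2.55% lower. At an unadjusted p under 0.05, 7 were higher and 6 lower, where 21.3% of all genes had such a p. On the recovered reads edgeR called 1 of them, where it called 854 of the 17091 genes, and DESeq2 called 7, among them Timeless, Wee1, Klf9, Klf10 and Fmo2, where it called 10.9%. The gene called by limma was Fmo2, which encodes a flavin monooxygenase. It had 116, 173 and 211 normalised read counts in the old libraries, against 38.8, 50.8 and 23.5 in the young libraries. All old libraries were above all young ones, and the log2 fold change was 2.14 ± 0.34 (SE), with a limma adjusted p of 0.0108.

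The nuclear receptor genes Rora and Rorb had log2 fold changes of −0.11 and 0.40, with overlapping groups. Of the 3 bZIP factors Tef, Hlf and Nfil3, limma, edgeR and DESeq2 called 0, and 1 was lower at an unadjusted p under 0.05. Nfil3, a repressor that competes with DBP at D-boxes, was that gene, at −0.35 ± 0.15 on the log2 scale (limma adjusted p = 0.227). For this list and the next ones, the shares over all genes were 5.25% called by limma and 21.3% with an unadjusted p under 0.05. Of 5 other repressors limma and edgeR called 0, DESeq2 called Timeless, and 1 was higher at an unadjusted p under 0.05. Timeless, which also acts at the replication fork, had a log2 fold change of 0.93 ± 0.30 (limma adjusted p = 0.121), and Ciart, a repressor of the BMAL1 pair, had −0.34 ± 0.20 (0.356). Of 13 kinase and ubiquitin pathway genes, limma, edgeR and DESeq2 called 0, and 1 was higher and 2 lower at an unadjusted p under 0.05. The smallest p belonged to the casein kinase gene Csnk1a1 (log2 fold change −0.25 ± 0.10) and the ubiquitin protease gene Usp2 (−0.37 ± 0.15). The acetyltransferase gene Ep300 had a log2 fold change of −0.26 and was not called by limma.

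Of 10 output genes, limma called Fmo2 higher and 0 lower, where it called 2.71% of all genes higher and 2.55% lower. Wee1, a mitotic inhibitor that the BMAL1 pair drives through E-boxes in mouse liver, had 941, 931 and 948 normalised read counts in the old libraries, against 693, 781 and 590 in the young libraries. The old libraries were nearly equal and all higher. Limma gave 0.46 ± 0.13 on the log2 scale (SE) and did not call the gene (adjusted p = 0.0835).

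The genes most like Arntl and Dbp in pattern were sought by their deviations from the group means over the 6 libraries, among the 13308 genes with a mean of at least 50. For Arntl the 5 most similar genes were Relb, Zfp788, Rnft1, Gtpbp10 and Pcdhgc5, with Pearson r of 0.995 to 0.996. For Dbp they were Fbxl17, Catsper2, Rexo1, Dhx30 and Sh3bp5, with r of 0.974 to 0.992. None of these genes is in the clock lists used here. Among the listed clock genes with such a mean, r with Arntl ran from −0.97 (Hlf) to 0.90 (Sirt1). Npas2 had 0.88, which 513 genes reached. The deviations of Arntl were 0.21, 0.28 and −0.49 in old replicates 1, 2 and 3 and −0.09 to 0.07 in the young libraries, so its r rest mostly on the old libraries. An r of 0.9 was reached by 400 genes with Arntl and by 67 with Dbp, and the r are descriptions of 6 libraries.

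Glucocorticoids act on Per1 directly, and Per1 was therefore also read within a list of 7 glucocorticoid responsive genes. Of these, limma called 0 higher and 1 lower, Zbtb16, a zinc finger repressor gene with a log2 fold change of −1.34 ± 0.25 (adjusted p = 0.0215), while edgeR called 2 and DESeq2 called 3. Over all genes limma called 5.25%, edgeR 854 of 17091 and DESeq2 10.9%. At an unadjusted p under 0.05, 0 were higher and 4 lower, where 21.3% of all genes had such a p. In every old library 4 were lower, where 12.8% of all genes were. Dusp1 and Tsc22d3 had log2 fold changes of 0.35 and −0.34, with overlapping groups, and limma called neither. Fkbp5, which encodes a cochaperone of the glucocorticoid receptor, stood at 4132, 1741 and 3276 normalised read counts in the old libraries, against 6376, 12133 and 9083 in the young libraries. Its log2 fold change of −1.63 ± 0.36 narrowly missed the limma threshold, and the authors' deposited table gives it an adjusted p of 4.47e-06. Of 9 genes that respond to heat or cold, limma and edgeR called 0 and DESeq2 called Hspa8, and 2 were higher and 1 lower at an unadjusted p under 0.05. The cold-induced genes Cirbp and Rbm3 had log2 fold changes of opposite sign, −0.29 ± 0.11 and 0.37 ± 0.14, and the chaperone gene Hspa8 had 0.50 ± 0.15. Of 10 immediate early genes, the class with which Per1 and Per2 share rapid induction, limma and edgeR called 0 and DESeq2 called Fos, and 3 were higher at an unadjusted p under 0.05.

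Markers of other cell types also differed between the groups, and their part in the clock gene values was not tested beyond the values given here. A source label reads auditory nerve cells against a tissue label of lateral wall, and all 7 marginal and 7 intermediate cell markers of the stria were detected in every library. The intermediate marker Tyrp1 was near the floor, at 0.97 normalised read counts in old replicate 1, where 1 read is worth 0.97. On the side of the nerve, the summed counts of 7 neuron markers were 511, 4649 and 5389 in old replicates 1, 2 and 3, against 286 to 592 in the young libraries, and those of 6 glia markers were 27798 to 39547 in old and 22271 to 27264 in young libraries. The summed counts of 8 erythroid markers were 21076, 7122 and 42236 in old replicates 1, 2 and 3, against 2874 to 4923 in the young libraries. The sum of 9 neutrophil markers was 5546, 930 and 10643 in the old libraries and 380 to 555 in the young libraries. The sum of 8 macrophage markers was 22030 to 32323 in old and 6280 to 7522 in young libraries, and the sum of 6 fibrocyte markers was 636644, 1065055 and 492812 in old and 1097542 to 1264964 in young libraries. The sum of 6 bone markers was 1067 to 1238 in old and 3028 to 5665 in young libraries. Of these bone markers 5 were called lower by limma, where 2.55% of all genes were. The sum of 8 muscle markers was 85.5 to 161 in old and 316 to 523 in young libraries. Higher in every old library were 6 of 8 erythroid, 8 of 9 neutrophil and 7 of 8 macrophage markers, where 13.2% of all genes were. None of the markers in these 3 lists was at 0 in any library, while 3 of the 8 muscle markers were at 0 in at least 1 library. Old replicate 3, with the lowest Arntl, had the highest erythroid and neutrophil sums. In such bulk samples fewer cells of a type and less RNA per cell cannot be told apart. Old replicate 3 also differed in Xist, the RNA of the inactive X chromosome, with 45.2 normalised read counts against 24382 to 29162 in the other 5 libraries, and the labels give no sex.

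In GENCODE M21 on GRCm38, Arntl lies on chromosome 7 from 113207465 to 113314126, Nr1d1 on chromosome 11 from 98767932 to 98775333, Per3 on chromosome 4 from 151003652 to 151044665, Per1 on chromosome 11 from 69095217 to 69109960 and Clock on chromosome 5 from 76209868 to 76304792. Each deposited value covers a whole gene, and exons and transcripts are not separated.

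**Figure D5:**
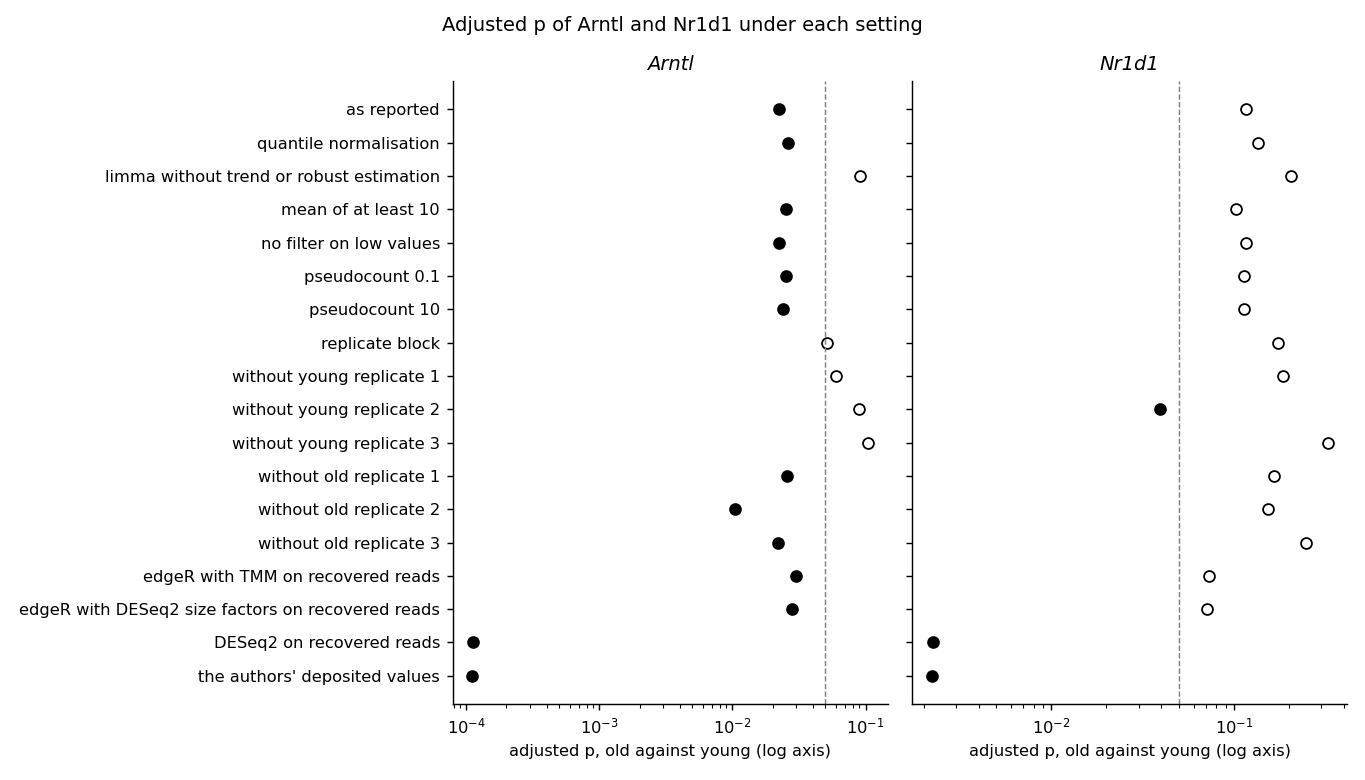
Adjusted p for old against young (horizontal log axis) of Arntl and Nr1d1 as reported and under each of 17 other settings (rows), with filled points under 0.05, the dashed line. Arntl passes in 13 of the 18 rows and Nr1d1 in 3, those without young replicate 2, with DESeq2 and in the authors' deposited values.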

How the data were processed

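Total RNA of the lateral wall of 3 old and 3 young mice was sequenced with the TruSeq RNA kit, per the labels' protocols. The submitters' processing notes name Partek, TopHat2, DESeq2 and mm10, with neither version nor role. The authors deposited a signal per gene and library, namely read counts scaled by a size factor. A single read is worth 0.946 to 1.05 of it. Dividing by that worth left 99.9% of values within 0.1 of an integer, and the recovered reads summed to 37055355 to 39103398 per library. For old against young, the authors also deposited p-values with their adjusted form (missing for 332 genes) and a signed fold score.

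Group differences were tested with limma 3.58.1 (R 4.3.3, trend and robust) on log2(value + 1), since the deposited values are normalised. A minimum mean of 1 removed 0 genes. The fits were tested on simulated data. Alternatives were edgeR 4.0.16 and DESeq2 1.42.0 on recovered reads, quantile normalisation, other pseudocounts (0.1 and 10) and filters (a mean of 10, or none), the replicate block and leaving out each library. No 2 libraries agreed within counting noise (chi-square per degree of freedom of at least 19.38). The spread behind each p-value is that between mice, 1 per library. Limma, edgeR and DESeq2 each draw the spread of a gene toward that of other genes.

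The members and gene lists were chosen with earlier results of these data known. Named besides the members were every partner called, the 2 with the smallest p in each partner list, and the 5 genes most like Arntl and Dbp. Some partners that this rule names are not reported here. Others, such as Arntl2, Rora, Rorb, Tef, Thra, Sphk2, Zbtb16, Fkbp5, Cirbp, Rbm3 and Hspa8, were named after their values were seen. Exon lengths and positions come from GENCODE M21 (basic set), and promoters from RefSeq.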

Additional observations from a re-analysis of the deposited data

How the results depend on the processing

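The number of clock genes called was 1 as reported, 0 without the trend and robust options of limma, 0 with the replicate number as a block, 2 with DESeq2 on recovered reads, 2 in the authors' deposited table, and 0 to 1 when 1 library was left out. Over all genes, 898 calls became 337 without those options, 406 with the block, 1819 with DESeq2, 1818 in the authors' deposited table and 230 to 1136 without 1 library. For the 47 partners, 1 call became 0 without those options, 7 with DESeq2, 7 in the authors' deposited table and 1 to 4 without 1 library. Without 1 library, the log2 fold change of Clock ranged from −0.03 to 0.06, of Per2 from −0.07 to 0.43 and of Cry1 from −0.32 to 0.04, each on both sides of 0. The other 7 clock genes kept their sign in all 17 alternatives. Same-numbered libraries did not deviate together (r of −0.244, −0.096 and −0.088 for replicates 1, 2 and 3). Libraries of different number had r of −0.146 to 0.235. With so few libraries these values show no pairing by number but cannot exclude one. The cause of the lost calls was not tested. With 3 mice in each group, the spread between mice limits what could be detected for genes such as Per2, and the part of depth in that spread was not tested.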
